A study of Mus musculus with 6 samples.

Results

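Ribosome biogenesis genes encode the factors that transcribe, modify, cut and assemble ribosomal RNA in the nucleolus. The 42 genes described here were picked by name as nucleolar, RNA polymerase I and rRNA processing factors, with earlier results of these data known, and were looked up by symbol in the deposited table. All 42 were found among the 15599 gene rows that hold a read in at least 1 library, and all 42 passed the filter on low values (a normalized CPM of at least 1 in at least 3 libraries), which left 12008 genes for testing. The table holds RNA-seq values for LT-HSC, the long-term repopulating blood stem cells of mouse bone marrow, from C57BL/6 mice that lack ItpkB and from WT littermate controls, with 3 libraries of each genotype. ItpkB is a kinase that turns inositol trisphosphate into inositol tetrakisphosphate. The mutant mice carried the Ms T-less allele, induced with the mutagen ENU, and are called ItpkB-/- here (the sample titles spell it IPTKB-/-). Each library came from the pooled marrow of 4 age-matched mice, sorted by FACS as LSK CD34-CD150+CD48-Flk2- cells (LSK stands for lineage-negative, Sca-1-positive, Kit-positive). The 3 values of a genotype are therefore the spread between pools, not between single animals. Age and sex beyond that, and any treatment of the mice, are not given in the sources used here.

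In the nucleolus, RNA polymerase I makes one long precursor that holds the RNAs of both ribosomal subunits. Small nucleolar ribonucleoproteins (snoRNPs) methylate it (box C/D) or turn its uridines into pseudouridines (box H/ACA), and large assemblies of processing factors then cut and fold it into the small and the large subunit. The factors are needed in step with growth, and blood stem cells are known for a low rate of protein synthesis and for being mostly out of the cell cycle. The 42 genes fall into 6 roles: 4 of RNA polymerase I, 5 nucleolar scaffold and chaperone proteins, 4 box C/D proteins, 4 box H/ACA proteins, 9 small subunit factors and 16 large subunit factors.

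The libraries held 4024203 to 7470329 assigned reads, so that 1 read was worth 0.131 to 0.249 normalized CPM. Itpkb itself read 10.2, 14.0 and 18.2 normalized CPM in the mutant libraries, in the order 1 to 3, and 22.1, 23.6 and 25.1 in WT. The groups did not overlap, and the difference of -0.73 (log2, SE 0.24) had an adjusted p of 0.172 in limma and 0.0541 with the replicate number as a block. An ENU allele need not remove the transcript. Among 10 LT-HSC marker genes, 5 fell in ItpkB-/- (Procr, Fgd5, Hlf, Mecom and Mllt3) and none rose, and the list summed to 1408 to 1882 normalized CPM in ItpkB-/- against 2279 to 2758 in WT. In sorted bulk cells, a change in the mix of cells and a change in RNA per cell cannot be told apart. Markers of granulocytes and their progenitors, 12 genes, summed to 6632, 18748 and 955 in the mutant libraries and to 3803, 2711 and 738 in WT, in the same order, and none of the 12 passed the test. Markers of B cells, 8 genes, summed to 31.8 to 36.8 in ItpkB-/- and to 30.6 to 38.8 in WT, nearly all of it Cd79b (28.2 to 34.8 in the 6 libraries). The other 7 stayed under 3 in every library, with Pax5 at 0. Markers of T cells, 7 genes, summed to 9.80 to 10.7 and to 11.4 to 13.2, mostly Cd4 (2.69 to 9.31) and Lck (2.61 to 6.13), while Cd3g and Cd8a were at 0 in every library.

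Nearly all of the 42 genes read higher in ItpkB-/- LT-HSC, but by little, and 1 of them passed the test. That gene was Rrp9, which encodes the protein that binds the U3 snoRNA of the box C/D class. The log2 difference (ItpkB-/- minus WT, on log2 of the normalized CPM plus 1) was above 0 for 40 of the 42 genes, where 50.2% of all tested genes were above 0. The median was 0.25, with a range from -0.23 to 0.75, beside a median of 0.00 over all 12008 tested genes. Without ItpkB-/- replicate 1 the median of the 42 was 0.41, with 39 of the 42 above 0. A gene was called where its Benjamini-Hochberg adjusted p in limma did not exceed 0.15, and by that limit 1 of 42 rose and none fell. Over all tested genes 2.27% rose and 3.24% fell. At an unadjusted p below 0.05, 10 of the 42 were higher (7.13% of all genes) and none was lower (8.34%). On the recovered reads, edgeR called 1 of the 42 higher (Rrp9; 2.45% of all genes) and DESeq2 called 3 (Rrp9, Nhp2 and Ppan; 3.24% of all genes), and neither called one lower. At an adjusted limit of 0.05 no member was called (0.616% of all genes).

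**Figure D1:**
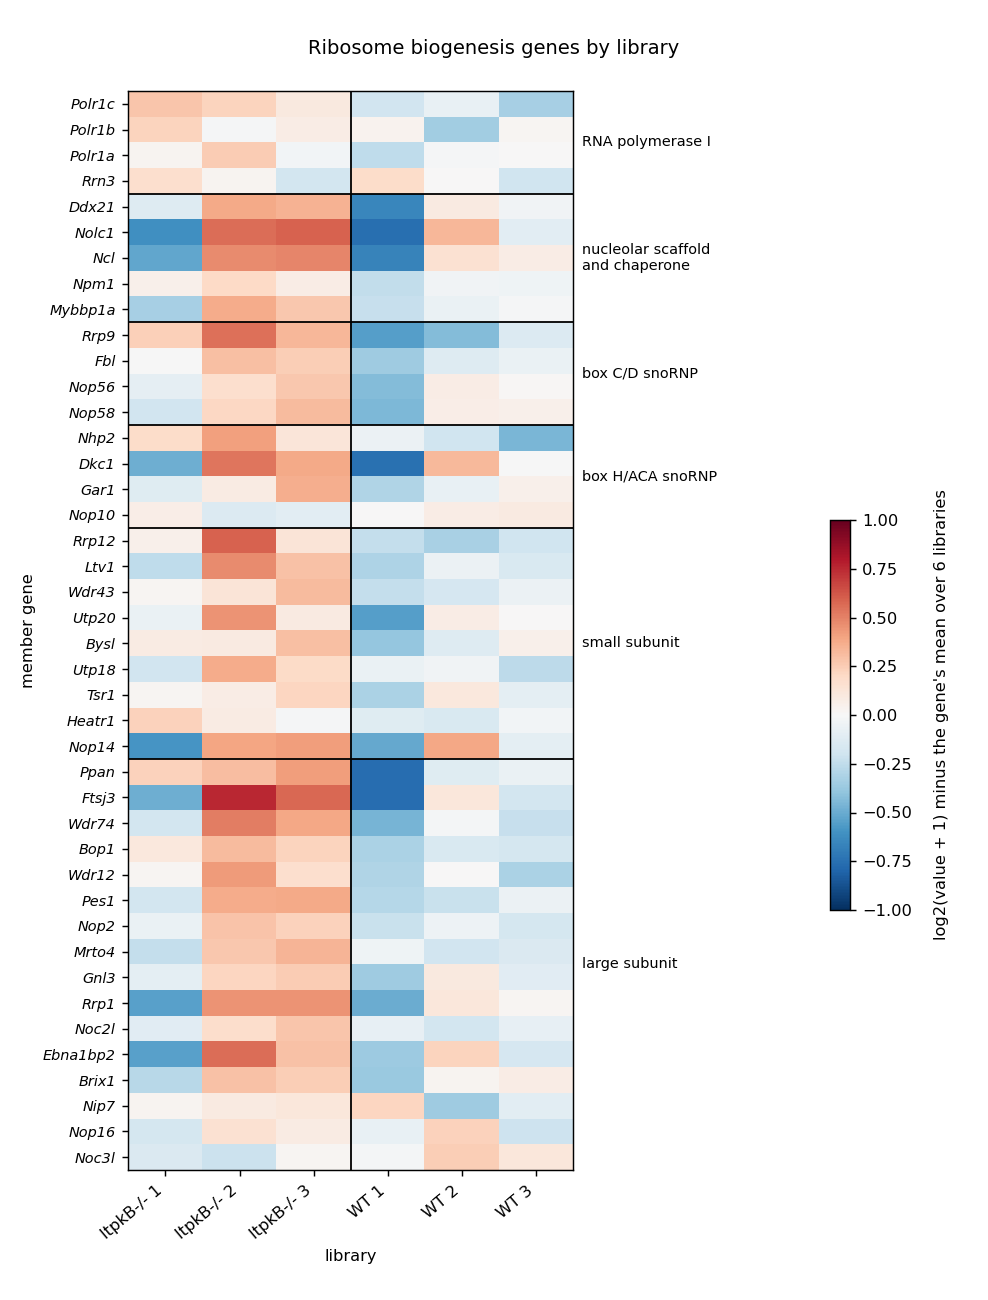
Deviation of each of the 42 genes from its own mean in each library (colour, log2 of normalized CPM plus 1), with ItpkB-/- libraries on the left, WT libraries on the right, and genes grouped by role. ItpkB-/- libraries 2 and 3 are mostly red, WT library 1 is mostly blue, and ItpkB-/- library 1 lies between, with Nolc1, Ncl, Dkc1, Nop14, Ftsj3, Rrp1 and Ebna1bp2 blue in both libraries numbered 1.

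The libraries carry replicate numbers, and libraries with the same number deviated together across all genes. The correlation of deviations from the genotype means was 0.296, 0.268 and 0.284 for the same-numbered pairs 1, 2 and 3, and at most -0.048 for any other pairing. Deviations sum to 0 within a genotype, so positive same-numbered values force the other pairings below 0 on average. With the replicate number as a block, 20 of the 42 rose and none fell, beside 9.15% of all tested genes that rose. At an adjusted limit of 0.05 the block called 6 of the 42, beside 4.54% of all genes. The 20 genes were spread over all 6 roles, with 1 of 4 in RNA polymerase I (Polr1c), 4 of 5 scaffold proteins (Ncl, Npm1, Nolc1 and Ddx21), 3 of 4 box C/D proteins (Fbl, Nop56 and Rrp9) and 2 of 4 box H/ACA proteins (Dkc1 and Nhp2). They also included 3 of 9 small subunit factors (Utp20, Wdr43 and Rrp12) and 7 of 16 large subunit factors (Bop1, Pes1, Wdr12, Ppan, Ftsj3, Nop2 and Wdr74). The count without the block rested on single libraries. Leaving out ItpkB-/- replicate 1 gave 9 called members (Mybbp1a, Fbl, Rrp9, Rrp12, Ltv1, Pes1, Ftsj3, Rrp1 and Wdr74; 3.17% of all genes rose), and leaving out any of the other 5 libraries gave 0. In those 5 fits the share of all genes that rose was 0.958% and 2.64% without ItpkB-/- replicates 2 and 3, and 1.17%, 1.02% and 0.308% without WT replicates 1, 2 and 3. Leaving out both libraries of a number gave 5, 0 and 0 called members for numbers 1, 2 and 3, beside 2.17%, 0.533% and 0.458% of all genes.

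**Figure D2:**
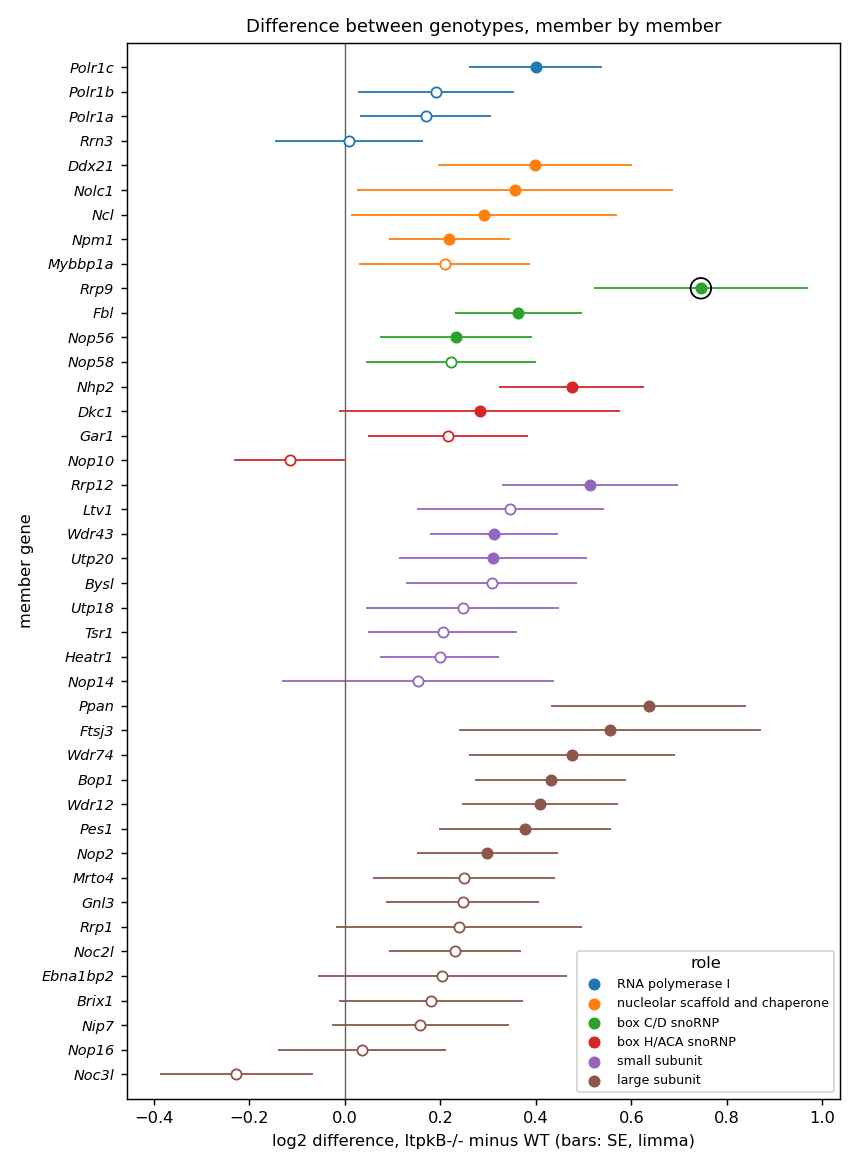
Log2 difference between genotypes (ItpkB-/- minus WT) for each of the 42 genes, with the standard error from limma as a bar and colour for the role. The ring marks Rrp9, called without a block, filled points are the 20 genes called with the replicate block, and 40 of the 42 points lie to the right of 0.

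Among the 4 RNA polymerase I genes, the subunit gene Polr1c stood apart from the others, although it did not pass the test without the block. Polr1c, whose product is shared by RNA polymerases I and III, was at 99.3, 95.6 and 87.7 normalized CPM in ItpkB-/- and at 71.6, 77.6 and 64.6 in WT. Every ItpkB-/- library lay above every WT library, with a log2 difference of 0.40 (SE 0.14, adjusted p = 0.194 in limma and 0.0525 with the block). Polr1a, which encodes the largest catalytic subunit and had the highest normalized CPM of the 4 before any correction for length, was at 140, 163 and 134 in ItpkB-/- and at 115, 136 and 137 in WT. These groups overlapped, and the difference of 0.17 (SE 0.14) did not pass with or without the block. Polr1b, the gene of the other large catalytic subunit, differed by 0.19 (SE 0.16). Rrn3, the factor that brings the polymerase to the ribosomal DNA promoter, differed by 0.01 (SE 0.15), and its 3 pairs gave -0.02, 0.02 and 0.02.

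The 5 scaffold and chaperone genes were all higher on average, and none passed without the block. Npm1 (nucleophosmin), the most abundant of the 42, was at 1734, 1913 and 1763 normalized CPM in ItpkB-/- and at 1407, 1629 and 1619 in WT. The groups did not overlap, and the log2 difference was 0.22 (SE 0.13, adjusted p = 0.451 in limma and 0.111 with the block). Npm1 has processed pseudogenes, so its reads may be split or shared by the authors' counting. Ddx21, an RNA helicase of rRNA transcription and processing, was at 216, 307 and 302 in ItpkB-/- and at 150, 252 and 231 in WT. Its groups overlapped, both libraries numbered 1 were low, and its adjusted p went from 0.382 to 0.0194 with the block. Ncl (nucleolin) showed the same layout, with 808, 1608 and 1627 in ItpkB-/- and 731, 1292 and 1221 in WT. Its adjusted p was 0.677 without the block and 0.0445 with it. Ncl, like other genes named below for the libraries numbered 1, was singled out after its values were seen. Nolc1, a chaperone of snoRNPs, and Mybbp1a, a nucleolar rRNA processing factor, differed by 0.36 (SE 0.33) and 0.21 (SE 0.18).

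Box C/D proteins held the called gene. Rrp9 was at 20.0, 25.2 and 21.5 normalized CPM in ItpkB-/- and at 11.2, 12.3 and 15.3 in WT, a mean of 22.2 ± 2.65 (SD, n = 3) against 12.9 ± 2.11 (SD, n = 3). No library of one genotype reached the other, and the log2 difference was 0.75 (SE 0.22, adjusted p = 0.137 in limma and 0.0539 with the block). The call lay near its limit. Leaving out single libraries gave an adjusted p of 0.139 to 0.370, and only the fit without ItpkB-/- replicate 1 kept it at or under 0.15. With no filter on low values the adjusted p of Rrp9 was 0.200 and no member was called (1.12% of all genes rose). Just outside the limit were Nhp2 at 0.157 and Ppan at 0.158. Fbl (fibrillarin), the methyltransferase of the box C/D particle, was at 308, 380 and 364 in ItpkB-/- and at 241, 282 and 294 in WT. Its groups did not overlap, with a log2 difference of 0.36 (SE 0.13, adjusted p = 0.216 in limma and 0.0217 with the block). The core proteins Nop56 and Nop58 differed by 0.23 (SE 0.16) and 0.22 (SE 0.18), and both were higher in all 3 pairs.

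Box H/ACA proteins differed in direction, and none passed without the block. Nhp2, a core protein of the pseudouridine particle, was at 115, 135 and 110 normalized CPM in ItpkB-/- and at 97.2, 87.9 and 73.5 in WT. The groups did not overlap, and its log2 difference was 0.48 (SE 0.15, adjusted p = 0.157 in limma and 0.0246 with the block). Nop10, another core protein of the same particle, was at 267, 232 and 237 in ItpkB-/- and at 256, 268 and 272 in WT. It was 1 of the 2 genes with a difference below 0, at -0.12 (SE 0.12, adjusted p = 0.702), and it was higher in pair 1 and lower in pairs 2 and 3. Dkc1 (dyskerin), the pseudouridine synthase, and Gar1 differed by 0.28 (SE 0.30) and 0.22 (SE 0.17), and both were higher in all 3 pairs.

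All 9 small subunit factors were higher on average, by 0.15 to 0.51 on the log2 scale, and none passed without the block. Rrp12, a factor for late maturation and export of the small subunit, was at 43.3, 63.7 and 45.9 normalized CPM in ItpkB-/- and at 35.3, 33.2 and 36.3 in WT. ItpkB-/- library 2 was the high one, and the log2 difference was 0.51 (SE 0.18, adjusted p = 0.206 in limma and 0.0753 with the block). Wdr43, of the complex that makes the earliest cuts (the small subunit processome), was at 121, 131 and 148 in ItpkB-/- and at 101, 106 and 114 in WT. Heatr1, a processome protein and the highest of the 9 in normalized CPM before any correction for length, was at 185, 167 and 157 in ItpkB-/- and at 145, 142 and 155 in WT. Both separated the genotypes, by 0.31 (SE 0.13) for Wdr43 and 0.20 (SE 0.12) for Heatr1, and of this pair Wdr43 alone passed with the block (adjusted p = 0.0896). Bysl, which acts in early and late small subunit particles, was also non-overlapping, with a difference of 0.31 (SE 0.18). The processome proteins Utp18, Utp20 and Nop14 differed by 0.25, 0.31 and 0.15, and the late assembly factors Ltv1 and Tsr1 by 0.35 and 0.21.

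Of the 16 large subunit factors 15 were higher on average and 1 was lower. Ppan, an early assembly factor, was at 51.4, 54.4 and 58.8 normalized CPM in ItpkB-/- and at 25.4, 40.1 and 41.7 in WT. No library overlapped, WT library 1 was the lowest, and the log2 difference was 0.64 (SE 0.20, adjusted p = 0.158 in limma and 0.0256 with the block). Bop1, Pes1 and Wdr12 encode the PeBoW complex, which is needed to process the precursor of the large subunit's RNAs. Bop1 was at 46.6, 54.1 and 50.7 in ItpkB-/- and at 34.6, 38.7 and 38.2 in WT, Wdr12 at 70.6, 94.0 and 78.1 against 56.4, 69.6 and 55.7, and Pes1 at 57.9, 85.6 and 86.1 against 54.0, 56.5 and 63.3. Bop1 and Wdr12 separated the genotypes and Pes1 did not, since ItpkB-/- library 1 fell within the WT range. Their log2 differences were 0.43 (SE 0.16), 0.41 (SE 0.16) and 0.38 (SE 0.18). The adjusted p-values were 0.213, 0.261 and 0.348 in limma and 0.0903, 0.0584 and 0.109 with the block.

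Wdr74, a factor that acts at release steps of the large subunit particle, was at 35.7, 58.7 and 53.6 normalized CPM in ItpkB-/- and at 29.3, 40.2 and 34.6 in WT. Nop2, an rRNA methyltransferase, was at 79.7, 102 and 98.6 in ItpkB-/- and at 71.4, 80.9 and 74.1 in WT. In both genes ItpkB-/- library 1 lay inside the WT range, and neither passed without the block over all 6 libraries, while both passed with it (adjusted p = 0.0766 in limma for Wdr74 and 0.149 for Nop2). Wdr74 also passed in limma without the block when ItpkB-/- replicate 1 was left out (adjusted p = 0.111). Rrp1, the most abundant of the 16, was at 103, 207 and 206 in ItpkB-/- and at 107, 164 and 153 in WT, and its pair 1 difference was -0.04. Noc3l was the gene that ran the other way. It encodes a partner in the Noc complexes of large subunit transport, and it was at 41.2, 39.0 and 46.1 in ItpkB-/- and at 45.0, 54.1 and 49.3 in WT. Noc3l was lower in all 3 pairs, by -0.13, -0.46 and -0.09, but its difference of -0.23 (SE 0.16, adjusted p = 0.551) did not pass. Noc2l, which encodes a partner of the same complexes, differed by 0.23 (SE 0.14). The remaining 7 (Ftsj3, Mrto4, Gnl3, Ebna1bp2, Brix1, Nip7 and Nop16) differed by 0.04 to 0.56, and of these Ftsj3, an rRNA methyltransferase, passed with the block.

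**Figure D3:**
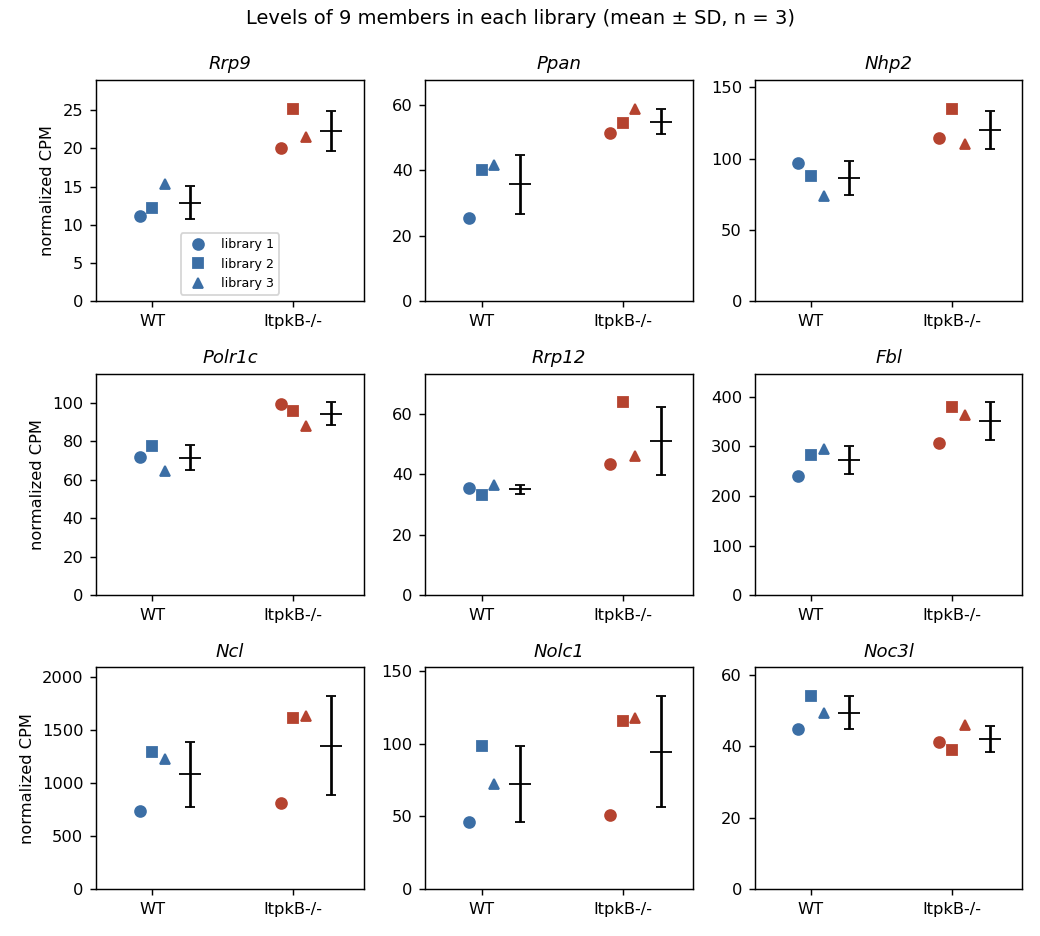
Normalized CPM of 9 of the 42 genes in each library (circle, square and triangle for libraries 1, 2 and 3), with the mean and SD of 3 libraries beside each group. Rrp9, Ppan, Nhp2, Polr1c, Rrp12 and Fbl separate the genotypes, Ncl and Nolc1 are low in both libraries numbered 1, and Noc3l is lower in ItpkB-/-.

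Counted over all roles, 12 of the 42 genes had every ItpkB-/- library above every WT library (Rrp9, Ppan, Rrp12, Nhp2, Bop1, Wdr12, Polr1c, Fbl, Wdr43, Bysl, Npm1 and Heatr1), where 10% of all tested genes did. None had every ItpkB-/- library below (11.3% of all genes). Within the same-numbered pairs, 31, 38 and 39 of the 42 were higher in ItpkB-/- in pairs 1, 2 and 3, with median log2 differences of 0.25, 0.32 and 0.37. In all 3 pairs 28 of the 42 were higher, beside 21.8% of all tested genes, and 1 was lower (Noc3l). The granulocyte marker sums of pair 3 were 955 and 738 normalized CPM, the lowest of the 3 pairs. The part of the granulocyte markers and of the 5 lower LT-HSC markers in these differences was not tested.

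**Figure D4:**
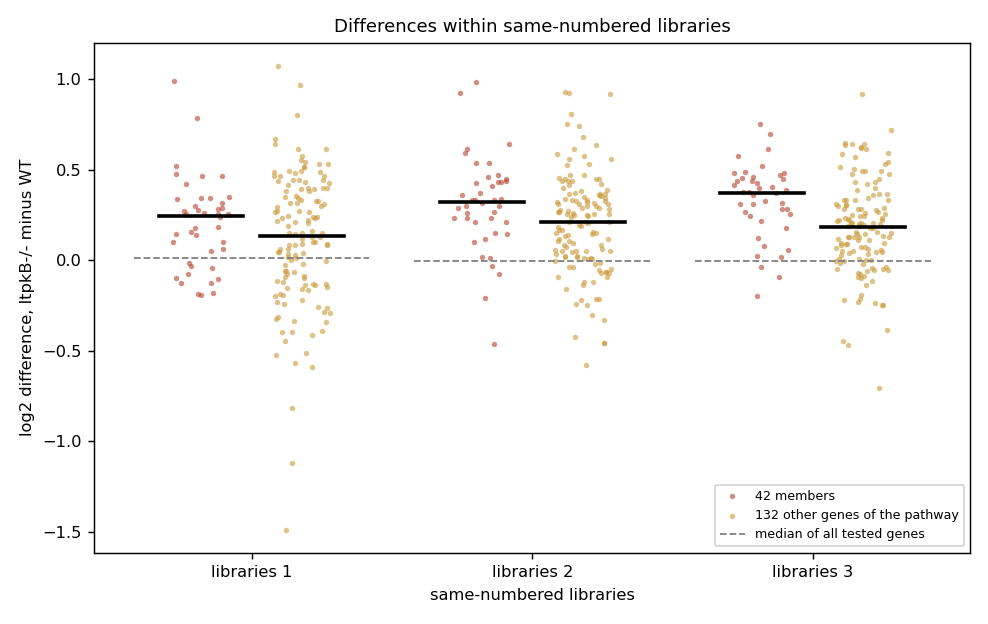
Log2 difference between the ItpkB-/- and the WT library of the same number for the 42 genes (red) and 132 other ribosome biogenesis genes (yellow), with black bars for their medians and dashed lines for the median of all tested genes. The medians of the 42 were 0.25, 0.32 and 0.37, and those of the other genes 0.13, 0.21 and 0.18.

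Few genes of the rest of the pathway passed the test. Of 133 further ribosome biogenesis genes listed for comparison, 132 were tested (Rpp25 did not pass the filter). They had a median log2 difference of 0.18, and 101 of the 132 were above 0. The part of them in RNA polymerase I transcription had a median of -0.01, with 5 of 11 above 0. In limma 2 of the 132 rose (2.27% of all genes) and none fell, and with the block 17 rose (9.15% of all genes) and none fell. Eif6, which keeps the large subunit from joining the small one too early, was at 131, 128 and 126 normalized CPM in ItpkB-/- and at 89.0, 91.9 and 81.5 in WT. Nat10, the acetyltransferase of small subunit RNA, was at 65.8, 67.1 and 68.2 in ItpkB-/- and at 43.8, 48.9 and 43.9 in WT. Both separated the genotypes with little spread, by 0.55 (SE 0.13, adjusted p = 0.0595) for Eif6 and 0.55 (SE 0.14, adjusted p = 0.0983) for Nat10. The genes of the ribosomal proteins themselves did not share the direction. They have many processed pseudogenes, so their counts are less certain. Of 79 cytosolic ribosomal protein genes none passed without the block, 19 were above 0 and the median was -0.08. With the block, 8 fell and none rose, beside 8.97% of all genes that fell. Their level in the libraries numbered 1 also ran against that of the 42, with a median of 0.30 above the others, against -0.24 for the 42.

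Myc, the transcription factor known to drive ribosome biogenesis genes, was at 824, 576 and 497 normalized CPM in ItpkB-/- and at 509, 472 and 442 in WT. The groups overlapped, since ItpkB-/- library 3 lay below WT library 1, and the log2 difference was 0.38 (SE 0.17, adjusted p = 0.321 in limma and 0.0303 with the block). Proliferation genes were also higher. Of 24 S phase genes 3 rose in limma (Mcm7, Tk1 and Prim1) and 12 with the block. All 24 were above 0, with a median log2 difference of 0.32. Their list summed to 3434 to 4011 in ItpkB-/- against 2671 to 3113 in WT. Of 24 G2 and mitosis genes 4 rose in limma (Cdk1, Ccnb1, Cenpa and Kif11) and 19 with the block. All 24 were above 0, with a median of 0.59, and sums were 1631 to 3611 against 1204 to 1999. Over all tested genes 2.27% rose in limma and 9.15% with the block. Both medians were above the 0.25 of the 42 genes. The part of cell cycle in the ribosome biogenesis values was not tested.

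Most of the 42 genes read lower in the libraries numbered 1. Averaged over both genotypes, 35 of the 42 were lower there than in the other libraries, beside 50.9% of all tested genes. In both genotypes at once 31 of the 42 were lower there, as were 3856 of the 12008 tested genes. The median difference was -0.24 on the log2 scale (-0.01 over all tested genes). For 22 of the 42 this difference was larger in size than the genotype difference, as it was for 50.5% of all tested genes. The genes most affected tended to share a sequence feature. In 8 of the 42 (Nolc1, Ftsj3, Dkc1, Ncl, Nop14, Rrp1, Ebna1bp2 and Ddx21) the libraries numbered 1 were more than 0.5 lower, and the median purine content (A and G) of their coding sequences was 59.7%, against 54.4% for the other 34 members. The ranges overlapped, at 57.7% to 64.5% for the 8 and 45.8% to 61.2% for the 34. Npm1, at 61.1%, differed by -0.14 in the libraries numbered 1. All tested genes had a median of 52.5%. The shortfall covered 19.0% of the 42 and 9.78% of all tested genes. Nolc1, at -1.03, was at 50.5 and 45.8 normalized CPM in the libraries numbered 1 and at 115, 118, 98.0 and 72.2 in the others.

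The stretches below are the 60 coding bases richest in purines in 4 of the genes that were lowest in the libraries numbered 1 and, for contrast, in Rrn3 and Polr1b, the 2 that were highest there. Sequences are from GENCODE M21 transcripts (mm10), 5′ to 3′ on the coding strand, and capitals mark purines. The run of GAG and GAA codons in Nolc1 writes one of the acidic tracts for which this nucleolar protein is known.
Nolc1: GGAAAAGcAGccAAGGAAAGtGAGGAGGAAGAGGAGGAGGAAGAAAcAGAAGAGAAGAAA
Ftsj3: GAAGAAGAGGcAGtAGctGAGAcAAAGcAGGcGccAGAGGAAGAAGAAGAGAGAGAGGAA
Dkc1: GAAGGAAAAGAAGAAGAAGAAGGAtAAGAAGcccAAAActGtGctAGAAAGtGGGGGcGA
Nop14: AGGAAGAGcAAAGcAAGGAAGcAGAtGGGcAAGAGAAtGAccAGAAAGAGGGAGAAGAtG
Rrn3: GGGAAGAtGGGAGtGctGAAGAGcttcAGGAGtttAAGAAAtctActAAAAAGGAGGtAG
Polr1b: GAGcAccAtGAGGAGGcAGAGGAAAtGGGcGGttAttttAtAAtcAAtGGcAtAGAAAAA

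Purines made up 55, 51, 49 and 51 of the 60 bases in Nolc1, Ftsj3, Dkc1 and Nop14, and 43 and 41 in Rrn3 and Polr1b. The relation held from decile to decile over 8855 tested genes with a mean of at least 10. Their median difference in the libraries numbered 1 went from 0.16 in the decile poorest in purines to -0.26 in the richest. Of the 42, 14 fell in that richest decile. The 79 cytosolic ribosomal protein genes ran the other way. Their median purine content was 55.8%, against 55.5% for the 42, and their median difference in the libraries numbered 1 was 0.30. Spearman's rho between purine content and this difference was -0.60 over the 42 and -0.32 over the 8855 genes, which share the same 6 libraries and are not independent. For GC content the same rho was 0.09 and -0.03, and for coding length -0.10 and -0.20. When each library's trend with purine content was removed, 18 of the 42 rose with the block (10.4% of all genes), all 18 among the 20 called with the block alone, and 3 without it (Rrp9, Nhp2 and Ppan; 3.16% of all genes).

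**Figure D5:**
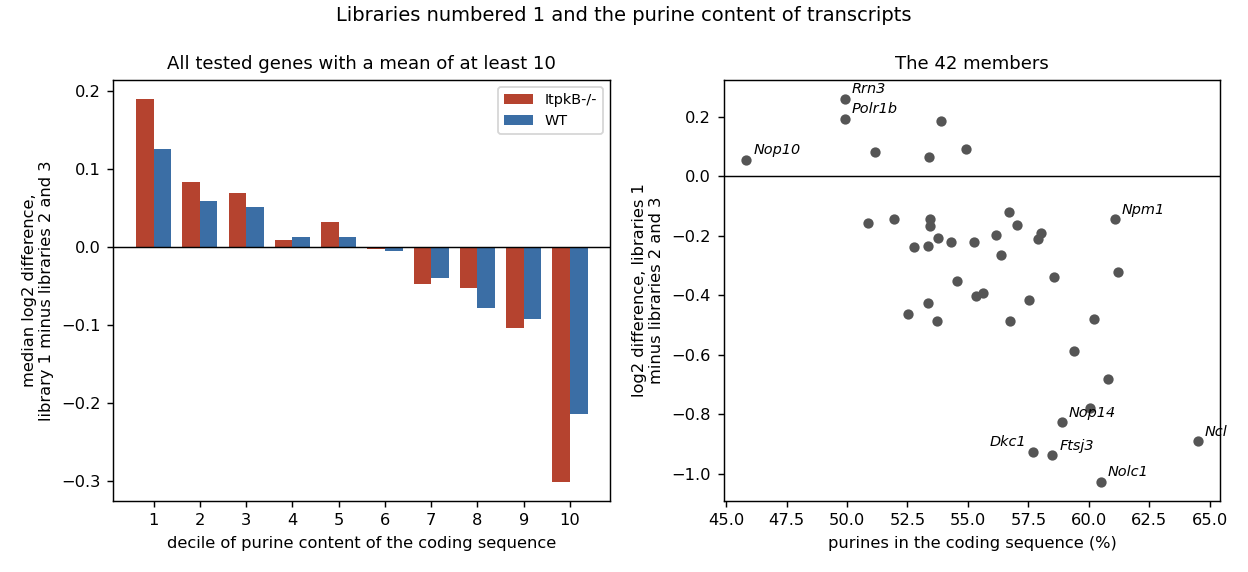
Left, median log2 difference between library 1 and the other libraries of each genotype (bars) by decile of coding purine content over 8855 genes. Right, the same difference over both genotypes against purine content for the 42 genes: Nolc1, Ftsj3, Dkc1, Ncl and Nop14 lie lowest, and Rrn3 and Polr1b, near 49.9% purines, lie highest.

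Levels between the 42 were compared per kilobase of transcript, as normalized CPM per kilobase in WT. Npm1 was highest at 950 ± 76.8 (SD, n = 3), ahead of Nop10 at 239 ± 7.32 and Fbl at 228 ± 23.3, a pair that differed by less than the spread of Fbl. Rrp12 at 8.05 ± 0.368 and Rrp9 at 8.14 ± 1.33 were lowest and did not differ beyond their spread. Rrp9, the called gene, was thus among the least abundant of the 42 per length. The order depends on which transcript is taken. Per kilobase of coding sequence Npm1 and Nop10 were again the highest and Rrp12 and Rrp9 again the lowest, but Nop58 went from rank 30 to rank 7.

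Promoters were searched for the E-box CACGTG, the site that Myc with its partner Max binds, in the 250 bases before the gene start (RefSeq, GRCm38.p6). The motif is its own reverse complement, so 1 search covers both strands. Of the 42 genes 38 had a promoter entry (all but Npm1, Fbl, Rrp12 and Bop1). The motif was present in 3 of the 38, or 7.89%, against 10.04% of tested genes with an entry (906 of 9021) and 9.35% of the other ribosome biogenesis genes. The 4 sites are shown with 12 bases on either side and the motif in capitals, on the strand of the gene. They lie at chr6:125131811-125131840 for Nop2 (plus strand), chr11:93885769-93885798 for Utp18 (minus strand), and chr16:13780472-13780501 and chr16:13780639-13780668 for Rrn3 (plus strand).
Nop2: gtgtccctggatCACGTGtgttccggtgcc
Utp18: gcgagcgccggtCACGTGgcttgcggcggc
Rrn3 site 1: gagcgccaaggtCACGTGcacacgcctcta
Rrn3 site 2: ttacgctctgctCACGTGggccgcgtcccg

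The motif began 60 bases before the start of Nop2, 20 before that of Utp18 and 215 and 48 before that of Rrn3. Of the 3 genes with the motif, Nop2 alone passed with the block, and Rrn3, with 2 motifs, had the smallest difference of the 42 in size. The GC-box GGGCGG, searched on both strands, was present in 60.5% of the 38 promoters and in 64.4% of those of all tested genes.

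Several of the 42 share their locus with other RNAs. In 8 of them GENCODE places 23 snoRNA genes on the same strand, as in Nop56, Nop58, Gnl3 and Ncl. These small RNAs were not measured in any useful way here, since the 11 of them in the table reached at most 0.249 normalized CPM, the value of 1 read in WT library 1. The library kit does not mark strand. More than 5% of the transcript overlaps exons of a gene on the other strand in 4 of the 42: Tsr1 with Srr (34.2%), Noc2l with Samd11 (21.5%), Bysl with Ccnd3 (9.37%) and Nop14 with Gm15522 (5.33%). Reads in those stretches cannot be told apart. On mm10 the called gene, Rrp9, lies on chromosome 9 from 106475963 to 106485424 on the plus strand, and no exon of another gene overlaps its transcript.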

How the data were processed

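RNA-seq libraries (NuGEN Ovation RNA-Seq System V2) were made from sorted LT-HSC, 3 ItpkB-/- and 3 WT. The deposited values are a normalized CPM signal: per the submitters' processing notes the authors used CASAVA 1.8.2, cutadapt, TopHat2 2.0.8b, Partek and edgeR on mm10, while the design text names another TopHat release, and the sources used here do not say which release was used. The deposited signal equals a whole number of reads times 1 factor per library (100% of values within 0.01 read), so 1 read is worth 0.131 to 0.249 and a count of 3 reads 0.393 to 0.746. The fit on log2(value + 1) used limma 3.58.1 with an intensity trend (R 4.3.3), 12008 genes at 1 or more in at least 3 libraries, and Benjamini-Hochberg adjustment over all of them, called at 0.15, the limit in the design text. On simulated data the fit recovered 23.8% of genes changed 1.5-fold and 74.2% of those changed 2-fold. Of its calls there, 15.1% were unchanged genes. The simulation held no effect of the replicate number. The replicate numbers pair the libraries by the correlations given above. Alternatives were the replicate block, edgeR 4.0.16 and DESeq2 1.42.0 on the recovered reads, pseudocount, filter, scaling and left-out libraries. A correction for coding purine content, with and without the block, was chosen after seeing the data. Removing the trend used a spline with 3 degrees of freedom.

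The members and lists were chosen with earlier results of these data known. Named genes were the called members, in each role the member with the smallest p and the one with the highest mean, members below 0, the 12 smallest p-values, called genes of the wider pathway, Itpkb and Myc. Coding sequences and positions are from GENCODE M21, and 11559 (96.3%) of the tested genes had a purine value. No duplicate libraries were found within a genotype, where the chi-square per degree of freedom over genes was 6.16 to 27.2 between libraries. Libraries of different genotypes were not compared in this way.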

Additional observations from a re-analysis of the deposited data

How the results depend on the processing

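Of the 42, 40 were above 0 in edgeR, DESeq2 and the purine correction, and 39 with quantile normalization. Leaving out both libraries numbered 1, 2 or 3 gave 40, 40 and 38, and leaving out single libraries 36 to 40. The block cannot change the estimates in this balanced design, so its count of 40 repeats that of the fit without it. None of the 19 members named by rule changed sign under any alternative, but the 19 include the 12 with the smallest p. Other members did change sign when single libraries were left out. Their lowest differences were -0.02 for Dkc1 and Ebna1bp2, -0.06 for Nop16, -0.07 for Nop14 and -0.09 for Rrn3. Called among all genes were 661, and 2176 with the replicate block, 386 with the expression limit set before testing, 386 with the limits of the design text, 139 and 113 without both libraries numbered 2 or 3, 2207 with block and purine correction, 182 at an adjusted p of at most 0.05, and 74 to 837 leaving out single libraries. Called among the 42 were 1, and 20 with the block, 3 with DESeq2, 0 with no filter on low values, 5, 0 and 0 without both libraries numbered 1, 2 or 3, 3 with purine correction, 18 with block and purine correction, 0 at 0.05, and 0 to 9 leaving out single libraries. Of the other ribosome biogenesis genes 2 were called, and 17 with the block, 4 with DESeq2, 1, 0 and 0 without both libraries numbered 1, 2 or 3, 4 with purine correction, 20 with block and purine correction, 0 at 0.05, and 0 to 7 leaving out single libraries. Of the ribosomal protein genes 0 were called, and 8 with the block, 4 without both libraries numbered 1, 8 with block and purine correction, and 0 to 4 leaving out single libraries. The median of the 42 was 0.25, 0.35 without both libraries numbered 1, and 0.18 to 0.41 leaving out single libraries. The cause was not tested. For the 19 members named by rule, 315 of 361 alternative values kept the status of the main fit, called or not called. A call was gained in 37 and lost in 9, all of Rrp9. Rrp9 alone of the 19 was called in the main fit, so most values that kept their status were never calls. The value of a member that rested on the fewest reads was Rrp9 in WT library 1, with 45 reads and a counting error of 14.9%.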

Other observations

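Over the 42 genes the genotype difference ran with the GC content of the coding sequence, with a Spearman's rho of 0.43, and not with purine content (-0.04) or coding length (-0.02). Over 8855 tested genes the same rho was -0.09 for GC content, 0.09 for purine content and -0.03 for coding length. The points share the same 6 libraries and genes are not independent, so this is a description without a test.

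Other regulators of the Myc network were read beside Myc. Mxd4, whose product competes with Myc for Max, was at 9.15, 10.7 and 9.04 normalized CPM in ItpkB-/- and at 22.6, 19.3 and 15.1 in WT, a log2 difference of -0.90 (SE 0.24, adjusted p = 0.106 in limma), and was singled out after its values were seen. Mycn was at 172, 98.1 and 161 against 263, 163 and 192, a difference of -0.53 (SE 0.23, adjusted p = 0.291 in limma and 0.00974 with the block). Max differed by 0.03 (SE 0.12), Mnt by 0.19 (SE 0.15) and Mxd1 by 0.20 (SE 0.19).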
